A study of Homo sapiens with 16 samples.

Results

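Short human promoter and enhancer inserts that carry a single-base allele from genome-wide association studies were compared with the reference inserts of the same regions in K562, a human line from chronic myeloid leukaemia with erythroid features. The members were all inserts of the short library whose deposited names begin with GWAS, which gave 91 of 499 inserts: 46 with an allele, named by its rs number and base, and 45 controls. Each allele was paired with the control of its region. GPN1 had 2 alleles, rs3749147-A and rs3749147-C, which shared 1 control, so these pairs were not independent. The library was measured in an episomal vector and in a lentiviral vector, with 2 replicates of RNA (TSS-MPRA, a reporter assay that reads the capped 5′ end of each transcript) and 2 replicates of DNA in each, 8 of the 16 samples of the series. All samples were K562 cells. No treatment or time was given in the labels, and no cell type marker was measured by the reporter.

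A core promoter sets where RNA polymerase II begins transcription and how often. Initiation favours a purine that follows a pyrimidine, the core of the initiator element, and further motifs such as the TATA box upstream of the start place or strengthen it. A single base can therefore alter the amount of RNA, the position of its 5′ end, or both. Many variants from association studies lie outside coding sequence, in promoters or in enhancers, which also start short transcripts.

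Each insert carried 4 barcodes and had starts scored at 200 positions, taken here as its length. The region given in its name spans 150 bases, so part of the 200 lies outside that region. Position 128 of the insert, the most used start over the whole library in each RNA sample, was taken as the middle base of the region given in its name. With that placement 57.0% to 65.2% of starts fell on a purine after a pyrimidine of hg38, against at most 24.9% at any other shift. In hg38, 22 of the 46 pairs had a GENCODE transcript start on the same strand within 500 bp of that base. Another 13 had a start only on the opposite strand within that distance, and 11 had neither. The place of the changed base within the insert, and the strand on which the allele letter is written, were not used here, and the insert names hold only the rs number and the letter. The sequences below are therefore the hg38 reference around the start sites. They are shown because the changes in level or start described here fall on them. Each is written 5′ to 3′ on the transcribed strand. Capitals mark the base whose share of starts rose most and the base whose share fell most in the lentiviral vector (where the change was at least 5 percentage points and the base lies in the window) or, failing that, the main start of the control. Windows in annotated untranslated regions were kept to 30 bases.

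DDX5, chr17:64506272-64506301, minus strand: aaagcggccggcAcctcAttcatttctacc
LINC02937, chr9:91193696-91193770, minus strand: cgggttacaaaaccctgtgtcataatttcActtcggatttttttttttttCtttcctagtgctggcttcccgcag
PRRC2C, chr1:171486181-171486255, minus strand: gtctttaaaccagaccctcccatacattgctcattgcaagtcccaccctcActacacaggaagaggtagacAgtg
TUFM, chr16:28846306-28846335, minus strand: aggcgcccttCttcttctGtgcgctcgggc
YWHAB, chr20:44885647-44885721, plus strand: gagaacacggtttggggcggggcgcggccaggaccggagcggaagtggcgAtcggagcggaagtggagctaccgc
PGP, chr16:2215219-2215293, plus strand: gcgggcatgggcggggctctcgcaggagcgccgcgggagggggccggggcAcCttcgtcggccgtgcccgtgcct
ACADS, chr12:120725693-120725767, minus strand: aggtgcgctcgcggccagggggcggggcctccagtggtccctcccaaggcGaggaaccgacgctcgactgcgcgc
PYCARD-AS1, chr16:31201811-31201885, plus strand: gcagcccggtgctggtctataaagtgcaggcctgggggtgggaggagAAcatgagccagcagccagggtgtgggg
TNPO1, chr5:72848159-72848188, plus strand: gcggcagcagcagcAgacgctggcggccgg
NUP210, chr3:13429950-13430024, plus strand: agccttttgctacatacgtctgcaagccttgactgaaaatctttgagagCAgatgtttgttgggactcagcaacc
SCO2, chr22:50526417-50526446, minus strand: cggggactcaggcCcAgggcgctgcccggg
MAPK3, chr16:30123328-30123402, plus strand: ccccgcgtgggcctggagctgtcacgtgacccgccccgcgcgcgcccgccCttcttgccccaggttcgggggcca
TMEM258, chr11:61792590-61792619, minus strand: cctgctcCtgccgacgtgttcTtccggtgg
ATP2B4, chr1:203682995-203683024, plus strand: cgctgccagacttcAtacggaagaaaggat

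The main start of the control was a purine after a pyrimidine in 31 of 41 regions measured episomally and in 33 of 43 measured lentivirally. It fell on position 128 in 17 and 20 of them. Of the motifs searched on both strands of the 200 reference bases, CCAAT was found in 9 of the 45 regions (20.0%, against 23.0% of the 335 distinct located inserts of the library). The GC box GGGCGG was in 19 (42.2% against 43.9%), the ETS-type CCGGAAG in 5 (11.1% against 11.6%) and TATAAA in 3 (6.67% against 3.88%). The GATA-type AGATAA was in 6 (13.3% against 10.1%), the AP-1-type TGANTCA in 4 (8.89% against 8.96%), GGAANTCC in 3 (6.67% against 4.18%), AAGATGG in 2 (4.44% against 4.78%) and an NRF1 site in 2 (4.44% against 6.87%). A region counted for every motif it held, overlapping or not. The regions were GC-rich, with a median of 66.0% and a range from 38.5% to 81.5%.

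RNA totals were 11140433 to 21571370 reads per sample. DNA totals were 8614823 to 15286382 in 3 samples and 1698930 in episomal replicate 2, where the median GWAS barcode still held 738 DNA reads. RNA per DNA is given as an insert's share of RNA reads over its share of DNA reads, as the geometric mean over its barcodes, so a value of 1 is the average of the library. Differences between an allele and its control are log2 values with their standard errors over barcodes (4 against 4 unless stated). Barcodes of an insert share their libraries, so the p-values measure the spread between barcodes within these libraries and not between cultures. Reads carried no molecular identifiers in the files used, so the counts are reads and not molecules. The allele effect agreed between replicates with r = 0.874 over 44 pairs in episomal and r = 0.936 over 46 pairs in lentiviral libraries, a description only. Its median difference between replicates was 0.10 and 0.07, and the largest was 1.12 and 1.35. The 46 lentiviral pairs include OPRL1 rs8126001-T, which did not pass the filters of the fit.

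Of 44 measured pairs, 10 alleles changed RNA per DNA in the episomal vector at a limma adjusted p under 0.05, 4 of them up and 6 down. Lentiviral libraries gave 11 of 45, 6 up and 5 down. The background is the same fit over all pairs of a changed insert and its control, which adds pairs in which a whole motif was mutated. There 41.4% of 111 pairs passed in the episomal vector (14.4% higher and 27.0% lower) and 44.8% of 116 in the lentiviral vector (21.6% higher and 23.3% lower). The share among the single-base alleles was 22.7% and 24.4%, and no test of that difference was made. Their median absolute difference was 0.25 and 0.44, against 0.46 and 0.58 over all pairs. All 10 episomal calls and 10 of the 11 lentiviral calls were pairs whose allele and control barcodes did not overlap. Among all measured alleles this held for 10 of 44 episomal and 12 of 45 lentiviral pairs. The overlap is read from the same barcode values as the calls, so it is not separate support. Without division by DNA reads, 1 of 44 and 5 of 45 pairs passed. These held 0 of the 10 episomal calls and 4 of the 11 lentiviral calls (NFRKB, KLHL21, SCO2 and LINC02937).

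In 6 pairs the allele passed in both vectors, each with the same direction in both. They were 60.0% of the episomal and 54.5% of the lentiviral calls. The allele with the highest RNA per DNA among these was rs1991401-G at the start of DDX5, which encodes a DEAD-box RNA helicase (insert chr17:64506217-64506416, minus strand, middle base in the 5′ untranslated region). Episomal RNA per DNA was 9.40 and 8.90 with the allele and 4.46 and 4.44 with the control in replicates 1 and 2. Both allele replicates thus lay above both control replicates, by 1.04 ± 0.17 (SE), adjusted p = 0.000857. Lentiviral values were 3.88 and 3.75 against 1.90 and 1.86, a difference of 1.02 ± 0.24 (adjusted p = 0.00620). Allele and control barcodes did not overlap in either vector. Without division by DNA reads neither call was kept (adjusted p = 0.421 episomally and 0.336 lentivirally).

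The second rise in both vectors was that of rs28529403-C upstream of MAPK3, the gene of the kinase ERK1, in an insert that reads antisense to it (chr16:30123251-30123450, plus strand, in an intron of MAPK3 on the other strand). Episomal values were 0.767 and 0.862 with the allele and 0.368 and 0.452 with the control, a difference of 0.99 ± 0.19 (adjusted p = 0.00159). Lentiviral values were 1.56 and 1.75 against 0.918 and 0.983, a difference of 0.80 ± 0.20 (adjusted p = 0.00830). The groups did not overlap in either vector. RNA reads not divided by DNA reads gave 0.14 episomally (adjusted p = 0.893) and −0.44 lentivirally (adjusted p = 0.483), the latter in the opposite direction, and neither passed.

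The other 4 alleles called in both vectors lowered RNA per DNA, and none of their inserts had a same-strand transcript start within 500 bp. At rs1541254-G in an untranslated exon of ATP2B4, the gene of a plasma membrane calcium pump (chr1:203682875-203683074, plus strand), the episomal allele read 0.129 and 0.105 and the control 0.275 and 0.267. That is a fall of 1.22 on the log2 scale (−1.22 ± 0.22, adjusted p = 0.00126). In the lentiviral vector the allele read 0.482 and 0.478 and the control 0.905 and 0.846 (−0.86 ± 0.22, adjusted p = 0.00829). All 4 allele values lay below the control values of their vector.

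At rs12741141-G in an intron of KLHL21, which encodes an adaptor of a ubiquitin ligase (chr1:6609765-6609964, plus strand, read against the gene), the episomal allele was at 0.0278 and 0.0309 and the control at 0.0589 and 0.0618 (−1.04 ± 0.28, adjusted p = 0.0120). The lentiviral allele was at 0.457 and 0.328 and the control at 1.54 and 1.22 (−1.82 ± 0.24, adjusted p = 0.000233). Here the control itself was well below 1 in the episomal vector and above 1 in the lentiviral vector. The difference of its allele effect between the vectors was −0.78 ± 0.26, which did not pass (adjusted p = 0.0601).

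At rs200760632-G in an intron of the long non-coding RNA LINC02937 (chr9:91193648-91193847, minus strand, with an unnamed gene's start 339 bp away on the other strand), the allele was at 0.173 and 0.153 and the control at 0.267 and 0.231 in the episomal vector (−0.61 ± 0.19, adjusted p = 0.0231). In the lentiviral vector the values were 0.618 and 0.496 against 1.42 and 1.02 (−1.12 ± 0.22, adjusted p = 0.00269). At rs116554817-A, 9678 bp from the nearest coding start, that of NUP210, a nuclear pore gene (chr3:13429873-13430072, plus strand), the episomal values were 0.0208 and 0.0216 against 0.0427 and 0.0334 (−0.84 ± 0.22, adjusted p = 0.0114). The lentiviral values were 0.161 and 0.136 against 0.272 and 0.229 (−0.76 ± 0.22, adjusted p = 0.0186). For NUP210 the episomal call was lost without replicate 1 (−0.63, adjusted p = 0.118). With the replicate number as a block both of its calls were lost, the episomal one at −0.84 (adjusted p = 0.181) and the lentiviral one at −0.76 (adjusted p = 0.110).

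A further 4 alleles passed in the episomal vector alone, and each had the same sign in the lentiviral vector. At rs174538-A in the start region of TMEM258, which encodes a subunit of the oligosaccharyltransferase, the episomal allele read 1.78 and 1.76 and the control 1.01 and 0.952 (0.85 ± 0.20, adjusted p = 0.00719). The lentiviral difference was 1.12 ± 0.57 (adjusted p = 0.143), with 1 control barcode far below the others at −3.06 on the log2 scale. At rs2239760-A, 57 bp upstream of ACADS, a short-chain acyl-CoA dehydrogenase gene, and read on the opposite strand, the episomal values were 0.632 and 0.651 against 0.459 and 0.462 (0.48 ± 0.17, adjusted p = 0.0383). That call was lost without replicate 2 (0.46, adjusted p = 0.0723) and, with adjusted p from 0.0501 to 0.0598, with the replicate number as a block, with reads summed over replicates and with edgeR. Its lentiviral difference was 0.49 ± 0.27 (adjusted p = 0.168).

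The falls in the episomal vector alone were at rs912784-T, antisense to LCP1, the gene of the actin-bundling protein L-plastin, and at rs12118928-T, antisense to the centrosomal gene CEP350. LCP1 values were 0.0966 and 0.0909 with the allele against 0.165 and 0.156 (−0.78 ± 0.24, adjusted p = 0.0251). CEP350 values were 0.0407 and 0.0479 against 0.0635 and 0.0648 (−0.54 ± 0.16, adjusted p = 0.0180), and without replicate 1 the call was lost (−0.43, adjusted p = 0.0707). Both pairs were just outside the threshold in the lentiviral vector, at −0.52 ± 0.19 and −0.57 ± 0.22, both with an adjusted p = 0.0523.

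A further 5 alleles passed in the lentiviral vector alone, and 4 of them had the same sign in the episomal vector. At rs34651-T at the start of TNPO1, the gene of the nuclear import receptor transportin-1 (chr5:72848046-72848245, plus strand), the lentiviral allele read 0.472 and 0.547 and the control 0.185 and 0.212 (1.36 ± 0.25, adjusted p = 0.00161). Its episomal values were 0.338 and 0.338 against 0.349 and 0.331, with overlapping barcodes and a difference of −0.01 ± 0.16 (95% interval −0.36 to 0.34). The difference between the vectors was itself 1.37 ± 0.24 (adjusted p = 0.00280).

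At rs77316573-T, 429 bp from a start of PGP, the phosphoglycolate phosphatase gene, and on its opposite strand (chr16:2215142-2215341, plus strand), the lentiviral allele read 0.847 and 0.939 and the control 0.323 and 0.339 (1.43 ± 0.32, adjusted p = 0.00437). The episomal values were 0.163 and 0.168 against 0.128 and 0.141 (0.30 ± 0.24, adjusted p = 0.387), and the vectors differed by 1.13 ± 0.17 (adjusted p = 0.00110). At rs3108962-G at the start of NFRKB, which encodes a subunit of the INO80 chromatin remodelling complex (chr11:129895485-129895684, minus strand), the lentiviral allele read 0.291 and 0.331 and the control 1.18 and 1.16 (−1.91 ± 0.67, adjusted p = 0.0404). Its 4 allele barcodes ranged from −4.09 to −0.56 on the log2 scale, against −0.14 to 0.48 for the control, so the size of the fall varied much between barcodes. Without replicate 1 the adjusted p was 0.0560 at −1.81. The episomal values were 1.28 and 1.37 against 2.21 and 2.23 (−0.74 ± 0.40, adjusted p = 0.192), and the vectors differed by −1.17 ± 0.35 (adjusted p = 0.0348).

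Of 44 pairs, these 3 (TNPO1, PGP and NFRKB) were the ones whose allele effect on RNA per DNA differed between the vectors. 2 of the 3 were higher and 1 was lower in the lentiviral vector, against 24.3% of 111 over all pairs (18.0% higher and 6.31% lower). Without replicate 1 the count was 5. The other lentiviral calls were at rs131804-A in SCO2, a cytochrome c oxidase assembly gene, and at rs34720381-T, 609 bp from a PRRC2C start and on its opposite strand. SCO2 read 0.225 and 0.251 with the allele against 0.101 and 0.128 (1.06 ± 0.34, adjusted p = 0.0276), with barcodes that overlapped. PRRC2C read 1.46 and 1.39 against 0.717 and 0.703 (1.01 ± 0.36, adjusted p = 0.0432), and without replicate 1 it stood at 0.98 with an adjusted p = 0.0509. Their episomal differences were 0.49 ± 0.25 (adjusted p = 0.176) and 0.36 ± 0.30 (adjusted p = 0.404).

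Over the 44 pairs measured in both vectors the allele effects had a Pearson r of 0.785 and a Spearman rho of 0.790, and 32 had the same sign. Each vector had its own libraries, but both carried the same barcoded inserts, so these coefficients are descriptive. By place, 3 of 20 measured pairs with a same-strand start passed in the episomal vector, 4 of 13 with an opposite-strand start, and 3 of 11 with neither. The lentiviral counts were 4 of 21, 3 of 13 and 4 of 11. The median absolute difference was 0.24, 0.19 and 0.29 episomally and 0.29, 0.48 and 0.72 lentivirally, in the same order, so the order of the places was not the same in both vectors.

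Among the 29 pairs called in neither vector the largest differences were 0.55 episomally and 1.01 lentivirally. The lentiviral value belonged to rs61851769-T, intergenic on chromosome 1, 39019 bp from the nearest coding start, that of NEK2 (−1.01 ± 0.41, adjusted p = 0.0724). Its level was among the lowest of the set. At rs1131017-G in the start region of RPS26, a ribosomal protein gene, the lentiviral difference was 0.76 ± 0.29 (adjusted p = 0.0591) and the episomal one −0.14 ± 0.28. Next in size were, in the lentiviral vector, PDLIM5 rs11731606-T (0.72 ± 0.36), OTX1 rs58235267-G (−0.57 ± 0.43) and SETD1B rs2019562-T (0.54 ± 0.27), and in the episomal vector MACROH2A1 rs75925066-A (−0.55 ± 0.48). TUFM rs7187776-G (−0.48 ± 0.38), NHEJ1 rs3731890-T (−0.48 ± 0.80), RAB24 rs6879874-T (0.44 ± 0.34) and CEP170 rs71537331-T (0.40 ± 0.31) followed in the lentiviral vector. None of these differences passed the adjusted p threshold used. Before adjustment the limma p was under 0.05 for 15 of the 45 lentiviral pairs, of which 11 passed after it.

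Among the pairs not called was rs11915082-A. For this allele, upstream of and antisense to TFRC, the transferrin receptor gene, the 95% interval was −0.53 to 0.45 episomally and −0.55 to 0.52 lentivirally. The GPN1 alleles lay on opposite sides of their shared control without passing: rs3749147-A was at 0.14 ± 0.18 and 0.38 ± 0.18, and rs3749147-C at −0.20 ± 0.20 and −0.25 ± 0.18. A p above the threshold does not show that allele and control act alike.

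The position of the RNA 5′ ends was compared next. The share of an insert's starts that fell on position 128, a measure chosen after seeing the data, changed with 11 of 42 alleles in the episomal vector (4 up, 7 down) and with 8 of 44 in the lentiviral vector (3 up, 5 down). Over all pairs 39.6% of 106 passed in the episomal vector (5.66% higher and 34.0% lower) and 35.7% of 112 in the lentiviral vector (2.68% higher and 33.0% lower). All 8 lentiviral calls were among the 11 episomal calls, each with the same direction. In the episomal vector 5 of the 11, and in the lentiviral vector 4 of the 8, were alleles that also changed RNA per DNA there. Among all measured alleles RNA per DNA passed for 22.7% and 24.4%. Whether the 2 kinds of call go together was not tested.

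The largest change in the share at position 128 was that of the DDX5 allele. Position 128, the A of a CA step in the reference, took 71.5% and 70.3% of the control's episomal starts in replicates 1 and 2 and 28.8% and 27.9% of the allele's. Its lentiviral shares were 82.0% and 83.2% of the control's starts and 21.3% and 22.6% of the allele's. The fall was −42.6 ± 1.86 percentage points (adjusted p = 1.67e-06) and −60.7 ± 1.28 points (adjusted p = 8.27e-09). Starts at position 133, the next CA step downstream and the second capital in the DDX5 sequence, went from 8.16% to 23.4% of the episomal and from 5.56% to 25.1% of the lentiviral starts. Position 133 was the main start of the lentiviral allele. Positions 94 and 99, further upstream, went from 2.26% to 11.8% and from 2.41% to 11.6% there. The allele with the largest loss at position 128 was also one with higher RNA per DNA. Its RNA reads not divided by DNA reads did not pass, and a link was not tested.

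At YWHAB, the gene of the 14-3-3 protein beta, rs6031849-T (insert chr20:44885570-44885769, plus strand) went the other way. Position 128 is the A of a GA step in the reference. It took 8.69% and 5.92% of the control's episomal starts and 39.8% and 23.4% of the allele's, and 4.65% and 3.93% against 28.2% and 29.7% in the lentiviral vector. The rise was 24.3 ± 3.27 points (adjusted p = 0.000977) and 24.7 ± 3.30 points (adjusted p = 0.000546). RNA per DNA did not pass at this allele in either vector, at 0.05 ± 0.30 and −0.09 ± 0.39. At PGP rs77316573-T position 128, a CA step, rose from 38.5% to 59.3% (20.8 ± 3.15 points, adjusted p = 0.00192) and from 61.3% to 80.3% (19.0 ± 3.48 points, adjusted p = 0.00324). At ACADS rs2239760-A it rose from 10.3% to 22.9% (12.6 ± 2.67 points, adjusted p = 0.00906) and from 8.89% to 23.3% (14.4 ± 3.31 points, adjusted p = 0.00959).

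Falls in both vectors were seen at 4 further alleles beside DDX5. At LINC02937 rs200760632-G, position 128, the C within a run of pyrimidines, fell from 14.6% to 3.27% (−11.4 ± 0.94 points, adjusted p = 6.21e-05) and from 17.2% to 1.58% (−15.6 ± 1.63 points, adjusted p = 0.000153). Positions 123 and 124 in the same run fell with it in the lentiviral vector, from 9.13% to 0.40% and from 8.05% to 0.48%, and the main start of the allele lay at position 63. At TUFM, the mitochondrial elongation factor gene, rs7187776-G took position 128, in a CTTCTTCT stretch, from 9.64% to 1.09% (−8.55 ± 1.60 points, adjusted p = 0.00528) and from 10.5% to 0.137% (−10.4 ± 2.20 points, adjusted p = 0.00644). PRRC2C rs34720381-T fell from 27.8% to 15.1% (−12.7 ± 3.47 points, adjusted p = 0.0268) and from 32.5% to 17.2% (−15.3 ± 2.78 points, adjusted p = 0.00321). Its starts at position 149, the second capital, went from 11.2% to 28.1% and from 8.54% to 33.7%, with an SD between allele barcodes of 15.4 and 13.1 points.

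PYCARD-AS1 rs186112291-T, 24 bp upstream of that antisense gene's start, changed by −4.70 ± 1.54 points (adjusted p = 0.0464) and −7.21 ± 1.77 points (adjusted p = 0.0130). Starts moved among neighbouring bases there: position 125 went from 30.1% to 17.6% and position 126 from 7.20% to 24.3% in the lentiviral vector. The episomal call was lost without replicate 1 (−5.18, adjusted p = 0.0691). TATAAA was found in this insert, as in those of DDX5 and DUSP1.

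The remaining 3 episomal calls were NUP210 rs116554817-A (−13.6 ± 4.11, adjusted p = 0.0359), LCP1 rs912784-T (12.2 ± 4.11, adjusted p = 0.0494) and PDLIM5 rs11731606-T (−8.96 ± 1.97 over 3 barcodes each, adjusted p = 0.0207). Each was lost without a replicate: NUP210 at −11.5 without replicate 1 (adjusted p = 0.106) and −15.6 without replicate 2 (adjusted p = 0.0524), LCP1 at 11.6 and 12.8 (adjusted p = 0.0617 and 0.0601), and PDLIM5 at −5.72 without replicate 2 (adjusted p = 0.341). With at least 20 RNA reads per barcode PDLIM5 stood at 4.57 points (adjusted p = 0.813).

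A start rarely used by the control was among the main ones with 2 alleles, described here after their values were seen and without a test. In SCO2 rs131804-A position 126 took 20.7% of the allele's episomal starts (SD 2.33 points, 4 barcodes) and 2.39% of the control's. Its lentiviral shares were 23.7% (SD 4.34) against 0.03%. In NUP210 rs116554817-A position 127, the C just before the main start, took 12.6% (SD 8.49) against 1.79% episomally and 16.8% (SD 3.87) against 0.11% lentivirally. In both inserts the reference has a C at that base. At TMEM258 rs174538-A position 115 went from 9.98% to 19.5% and from 7.44% to 20.9%.

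The mean start position, which weighs all starts of an insert, differed for 2 of 42 alleles in the episomal vector (1 further downstream, 1 further upstream) and for 8 of 44 in the lentiviral vector (2 downstream, 6 upstream). Over all pairs 26.4% of 106 passed in the episomal vector (12.3% downstream and 14.2% upstream) and 39.3% of 112 in the lentiviral vector (13.4% and 25.9%). ATP2B4 rs1541254-G passed in both, with its mean start 9.34 ± 1.46 bp upstream of the control's in the episomal vector (−9.34, adjusted p = 0.00169) and 5.33 ± 1.04 bp upstream in the lentiviral vector (−5.33, adjusted p = 0.00494). Position 135, the main start of its control and a CA step, went from 33.0% to 11.9% and from 44.2% to 24.7%. The lentiviral mean-start call was lost with the median position (adjusted p = 0.608), and the episomal one was kept. This allele also lowered RNA per DNA in both vectors.

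TUBB1 rs62205396-T, in an intron of the gene of a platelet tubulin, moved 7.13 ± 1.48 bp downstream in the episomal vector (adjusted p = 0.00725). Position 154 went from 6.30% to 13.4% there, while RNA per DNA stood at −0.03 ± 0.24. That call was lost with the median position (2.25 bp, adjusted p = 0.655) and with the replicate number as a block (7.13 bp, adjusted p = 0.0759). Lentiviral starts of LINC02937 rs200760632-G moved by −13.3 ± 2.57 bp (adjusted p = 0.00494), TNPO1 rs34651-T by −13.2 ± 2.13 bp (adjusted p = 0.00205), DDX5 by −4.83 ± 0.95 bp (adjusted p = 0.00494) and PRRC2C by 7.55 ± 2.27 bp (adjusted p = 0.0340). With the median in place of the mean position, DDX5 stood at 0.62 bp (adjusted p = 0.608), the opposite direction. In TNPO1 the share of position 81, outside the window shown, went from 8.08% to 18.6% and that of position 128 from 41.1% to 25.6%.

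NFRKB rs3108962-G moved by 10.5 ± 3.31 bp (adjusted p = 0.0391), at 9.02 bp with an adjusted p = 0.0615 without replicate 1. IL18RAP rs1420106-G, upstream of an interleukin-18 receptor subunit gene, moved by −9.94 ± 1.95 bp (adjusted p = 0.00494), at −12.8 bp with an adjusted p = 0.0557 without replicate 2 and at an adjusted p = 0.262 with the replicate number as a block. IL18RAP did not pass for lentiviral RNA per DNA, at 0.24 ± 0.21.

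The shift in mean start differed between the vectors at 4 of 42 alleles (2 higher and 2 lower in the lentiviral vector), a comparison added after seeing the data, against 19.0% of 105 over all pairs (4.76% higher and 14.3% lower). TNPO1 differed by −14.4 ± 1.39 bp (adjusted p = 0.000448). Its episomal means differed by 1.20 ± 1.98 bp. From the episomal to the lentiviral vector the control's mean lay 15.2 bp further downstream and the allele's 0.80 bp. NFRKB differed by 9.24 ± 2.32 bp (adjusted p = 0.0273), PRRC2C by 3.32 ± 0.66 bp (adjusted p = 0.00969) and DDX5 by −2.42 ± 0.61 bp (adjusted p = 0.0275). Without replicate 1 the count was 2, with PRRC2C at 3.78 bp (adjusted p = 0.0806) and DDX5 at −2.09 bp (adjusted p = 0.0617). With the replicate number as a block PRRC2C was lost (adjusted p = 0.0686). With the median in place of the mean position NFRKB (adjusted p = 0.272), PRRC2C (adjusted p = 0.786) and DDX5 (adjusted p = 0.711) were lost, and TNPO1 was kept.

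Whole profiles were also compared by the earth mover's distance, the mean number of bases by which starts must move to turn one profile into the other, as a description. Its median between allele and control, each averaged over barcodes, was 2.57 bp over 42 episomal and 2.59 bp over 44 lentiviral pairs. Between replicates of a control, also averaged over barcodes, it was 0.758 and 0.780 bp. The median distance between single barcodes of one insert was 3.53 and 3.61 bp, which is not a like measure, since single barcodes are not averaged. Compared between single barcodes, allele and control were closer than barcodes within an insert in 14 pairs of each vector. Only 4 pairs in each vector had barcodes more than 2 times as far apart between allele and control as within an insert. They were DDX5, ATP2B4 and LINC02937 in both vectors, with TUBB1 in the episomal and TNPO1 in the lentiviral vector. Between single barcodes of allele and control DDX5 stood at 6.36 bp episomally and 9.96 bp lentivirally, with 1.92 and 1.46 bp within an insert. By averaged profiles the largest distances were those of KLHL21 rs12741141-G episomally (10.9 bp) and NEK2 rs61851769-T lentivirally (26.9 bp, 2 against 3 barcodes). Between single barcodes these stood at 12.1 and 30.5 bp, with 9.42 and 27.6 bp within an insert. The smallest averaged distances were those of GPN1 rs3749147-C in the episomal vector (0.469 bp) and of MAILR rs2247355-T in the lentiviral vector (0.205 bp), with MAPK3 rs28529403-C next at 0.307 bp. The MAPK3 allele thus raised RNA per DNA while position 128 took 70.7% of the control's and 74.0% of the allele's lentiviral starts.

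The level of most inserts differed between the vectors, in the whole short library and to a similar extent among the GWAS inserts. Of the 91 inserts 75 differed in RNA per DNA (edgeR's quasi-likelihood interaction, adjusted p under 0.05), 45 of them up and 30 down in lentiviral libraries, against 83.4% of all 499 short inserts (42.9% higher and 40.5% lower). These counts include inserts with few or no DNA reads. Among the 87 GWAS inserts with at least 20 DNA reads in every sample, a limit added after seeing the data, 73 differed, 44 up and 29 down. With scaling by library totals the split was 63 higher and 21 lower, and the median of all inserts moved from 0.07 to 0.73 log2, so the direction is relative to the scaling. Leaving out OPRL1 and IL18RAP, which had few reads, the highest values were at MACROH2A1, where the control stood 4.74 ± 0.12 and the rs75925066-A insert 5.52 ± 0.13 higher on the log2 scale in the lentiviral vector. The GPN1 inserts were lowest, at −2.72 ± 0.07 for the control, −2.52 ± 0.08 for rs3749147-A and −2.79 ± 0.08 for rs3749147-C.

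Some members could not be measured. OPRL1 rs8126001-T had no DNA reads in the episomal vector for either insert, and 86 and 41 DNA reads over all barcodes of the allele in the lentiviral vector, too few per barcode. IL18RAP rs1420106-G had 0 DNA and 0 RNA reads for the allele in the episomal vector. Start profiles could not be fitted for RPS26 rs1131017-G in either vector and for NEK2 rs61851769-T in the episomal vector, where too few barcodes held 50 RNA reads.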

How the data were processed

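RNA and DNA reads per barcode were counts, deposited by the authors with no normalization in them. The other deposited columns, numbered 1 to 200 per the file headers, held a score: the fraction of the RNA reads of a barcode that start at each position. The submitters' processing notes name STAR 2.7.9a and hg38; further steps are not given in the sources used here. In all, 4 blocks of values that belong to no sample used here were left out.

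Log2 of (RNA + 1) over (DNA + 1) was taken per barcode and averaged over 2 replicates. Barcodes with under 20 DNA reads in a replicate were left out, and a pair needed 2 barcodes per insert and a mean of 10 RNA reads in at least one of its inserts. Allele and control barcodes were compared with limma 3.58.1, Benjamini-Hochberg adjusted over all measured pairs of the 117 in the library (46 GWAS alleles, 71 motif mutants). The difference between vectors was fitted on the lentiviral minus episomal value of the same barcode. Start positions needed 50 RNA reads per barcode and replicate. Vectors were compared with edgeR 4.0.16 (TMM, DESeq2 1.42.0 as an alternative) on summed counts. Fits were tested on simulated data. Regions were placed with GENCODE 44, and sequences are from the hg38 reference. The labels do not say that replicates were separate cultures. Intervals cover counting and barcode spread only. Pairs named are those past the threshold, the 10 largest differences that did not pass, those nearest the threshold, those with the most and least similar profiles, and those not measured; others were named after their values were seen. The members and lists were chosen with earlier results of these data known. Some results are not reported here.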

Additional observations from a re-analysis of the deposited data

Results flagged for a closer look

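The effect of an allele differed between the episomal and the lentiviral vector, by a test of the difference itself, at 3 pairs for RNA per DNA. The lentiviral minus episomal effect was 1.13 at PGP rs77316573-T, 1.37 at TNPO1 rs34651-T and −1.17 at NFRKB rs3108962-G on the log2 scale.

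For the mean start position it differed at 4 pairs. The lentiviral minus episomal shift was −14.4 bp at TNPO1 rs34651-T, 9.24 bp at NFRKB rs3108962-G, 3.32 bp at PRRC2C rs34720381-T and −2.42 bp at DDX5 rs1991401-G. With the median in place of the mean position only TNPO1 of these 4 still passed. The vectors were separate libraries, so vector and library cannot be told apart.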

How the results depend on the processing

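Calls on RNA per DNA numbered 8 to 10 episomally and 10 to 13 lentivirally under the alternatives run (other pseudocounts, filters, summed reads, a trend, edgeR with a DNA offset, a replicate left out or as a block), except 1. RNA reads not divided by DNA reads gave 1 episomal call, 5 lentiviral calls and 1 difference between vectors, which held 0 of the 10, 4 of the 11 and 0 of the 3 calls reported, and reversed MAPK3 rs28529403-C to −0.44 in the lentiviral vector. Without a replicate the counts were 8 to 9 episomal, 10 to 11 lentiviral, 3 to 5 for the difference between vectors, 2 for the episomal and 6 for the lentiviral mean start, 2 to 4 for its difference between vectors, 8 to 9 and 8 to 10 for the share at position 128, and 68 to 76 inserts for the vectors themselves. The median in place of the mean start left 2 lentiviral calls, LINC02937 and TNPO1. It reversed DDX5 rs1991401-G to 0.62 bp there and to 0.12 bp for the difference between vectors. Of the 4 calls reported for that difference in mean start, the median kept TNPO1 only. With at least 20 RNA reads PDLIM5 rs11731606-T reversed to 4.57 points. Of 486 alternatives for single pairs, 426 kept direction and call, 56 kept only the direction and 4 reversed.

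Whether samples of the same replicate number belong together is not given in the labels and was not settled here. Deviations correlated at −0.09 between episomal and lentiviral RNA, 0.30 between RNA and DNA episomally and −0.01 lentivirally. With the number as a replicate block the counts were 8 episomal, 13 lentiviral and 4 between vectors for RNA per DNA, 3 and 8 for the mean start and 4 for its difference, 10 and 12 for the share at position 128, and 75 inserts for the vectors. Episomal replicate 2 held the fewest DNA reads, which limits its barcodes.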
